A study of Drosophila melanogaster with 4 samples.

Results

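Enriched regions of dSFMBT, as called on the 2 ChIP replicates combined, were examined in the 6 heterochromatic sequences that release 5 of the Drosophila melanogaster genome assembled apart from the chromosome arms: 2LHet, 2RHet, 3LHet, 3RHet, XHet and YHet. Every region of the combined list on these sequences was taken, which gave 524 of 9756 regions, 5.37% of the list. The unplaced sequences U and Uextra were left out. Each region was marked by whether it overlapped a region of both replicate lists, of a single replicate list or of neither, by at least 1 bp. The study mapped dSFMBT by chromatin immunoprecipitation and sequencing in larvae of the third instar, of the strain Oregon-R and wild type in genotype. Its 4 samples were 2 ChIP replicates, precipitated with the antibody Q2642 against dSFMBT, and 2 inputs. All came from homogenised, formaldehyde-fixed larval tissue, so cell types were mixed, and the labels give no sex of the larvae and do not say whether replicates came from separate collections. The inputs had no list of regions, so no background level per region was measured in them here.

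dSFMBT is a Polycomb group protein with MBT domains, which bind methylated lysines of histone tails. Together with Pho, which binds DNA directly, it forms PhoRC, a complex that sits at Polycomb response elements, the DNA elements from which Polycomb complexes silence developmental genes. The sequences studied here belong to the heterochromatin around the centromeres and to the Y chromosome. This chromatin is rich in transposon remnants and satellite repeats, carries HP1 and methylated lysine 9 of histone H3 over long stretches, and still holds active genes. In the polytene cells of larvae it is copied less than the rest of the genome.

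The larger part of the heterochromatic regions was found in neither replicate list. Of the 524, 114 overlapped both replicate lists, which was 21.8% (95% exact Clopper-Pearson interval 18.3 to 25.5%), beside 41.4% of the whole combined list. A further 66 overlapped replicate 1 alone and 62 replicate 2 alone. The remaining 282 overlapped neither list, 53.8% (49.4 to 58.1%), beside 32.1% of the whole combined list. On the arms 2L, 2R, 3L, 3R and X, 43.1% of 8881 regions were found in both (42.1 to 44.2%) and 30.5% in neither (29.5 to 31.4%). These intervals cover counting error only, and regions are not replicates. With 2 libraries the smallest two-sided p that an exact test over libraries can reach is 0.5, so differences from the arms are given as values with intervals and were not tested.

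**Figure D1:**
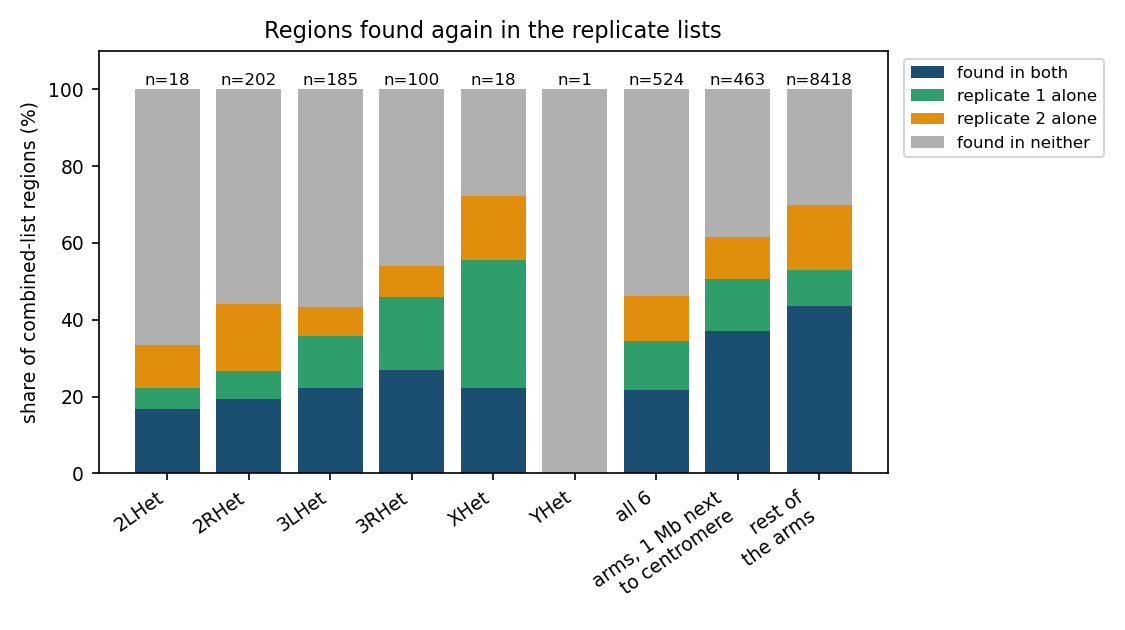
Stacked bars give the share (percent) of combined-list regions found in both replicate lists, in replicate 1 alone, in replicate 2 alone or in neither, for each heterochromatic sequence, for all 6 together, for the 1 Mb of each of the 5 arms next to its centromere, and for the rest of the arms. The dark share found in both is 21.8% over the 6 heterochromatic sequences, 37.1% next to the centromeres and 43.5% on the rest of the arms.

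The share found in both was low on each of the heterochromatic sequences. 3RHet had the highest share, 27.0% of 100 regions (18.6 to 36.8%), and 2RHet had 19.3% of 202 (14.1 to 25.4%). 3LHet lay between them at 22.2% of 185 (16.4 to 28.8%), so the 3 largest sequences did not differ beyond their intervals. The small sequences gave wide intervals: 3 of 18 regions were found in both on 2LHet and 4 of 18 on XHet. YHet had 1 region in the combined list, from 298774 to 299808, and none in either replicate list. On XHet 5 of the 18 regions were found in neither list, 27.8% (9.69 to 53.5%), and 9 in a single replicate, and that interval overlapped those of the 3 largest sequences. In the 1 Mb of each arm next to its centromere, 37.1% of 463 regions were found in both (32.7 to 41.7%). How much of that 1 Mb is itself heterochromatin was not examined. The rest of the arms had 43.5% of 8418 (42.4 to 44.5%), and chromosome 4 had 32.1% of 190 (25.5 to 39.2%).

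The replicate lists alone gave a smaller gap. Replicate 1 had 205 heterochromatic regions, 3.72% of its list, and replicate 2 had 199, 3.31% of its list. Of the 205 regions of replicate 1, 64.9% overlapped a replicate 2 region (95% exact interval 57.9 to 71.4%), beside 79.4% of the whole replicate 1 list and 80.3% of its regions on the arms (79.2 to 81.4%). Of the 199 regions of replicate 2, 62.3% overlapped a replicate 1 region (55.2 to 69.1%), beside 71.1% of the whole replicate 2 list and 71.9% on the arms (70.7 to 73.1%). In both libraries the heterochromatin thus had a lower share than the arms. Chromosome 4 lay above the heterochromatin in replicate 1, at 76.9% of 91 regions (66.9 to 85.1%). In replicate 2 it lay below, at 51.6% of 124 regions (42.5 to 60.7%). Its intervals overlapped those of the heterochromatin in both libraries. In the heterochromatin, regions of high and low score did not differ in this share beyond their intervals. Replicate 1 regions at or above their heterochromatic median score of 0.67 were found in replicate 2 at 65.0% (55.0 to 74.2%), and those below it at 64.7% (54.6 to 73.9%). For replicate 2, with a median of 0.72, the shares were 66.0% (55.8 to 75.2%) and 58.6% (48.2 to 68.4%). The shares with a match had overlapping intervals in the libraries on each of the 3 largest sequences. On 2RHet, 16 of 67 replicate 1 regions and 41 of 90 replicate 2 regions had no match in the other list. On 3LHet the numbers were 27 of 73 in replicate 1 and 18 of 59 in replicate 2, and on 3RHet they were 21 of 50 in replicate 1 and 9 of 36 in replicate 2.

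Each region carries 1 score, the authors' own value on a log2 scale, and 2 raised to the score is called its ratio below. The headers do not name the quantity that the ratio refers to. At equal score, the share found in both replicates was lower for heterochromatic than for arm regions in every class but the lowest, with intervals that did not overlap; this difference was not tested. Below a score of 0.4 the shares were 10.2% of 88 heterochromatic regions (95% exact interval 4.78 to 18.5%) and 14.1% of 4162 arm regions (13.1 to 15.2%), whose intervals overlapped. From 0.5 to 0.6 the shares were 21.9% of 114 (14.7 to 30.6%) in the heterochromatin and 78.6% of 972 (75.9 to 81.1%) on the arms. From 0.6 to 0.8 they were 41.6% of 101 (31.9 to 51.8%) in the heterochromatin and 91.5% of 901 (89.4 to 93.2%) on the arms. The gap was widest at scores of 1.0 and above, where 10.2% of 49 heterochromatic regions (3.40 to 22.2%) and 91.3% of 493 arm regions (88.4 to 93.6%) were found in both.

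At equal width the share found in both was also lower in the heterochromatin between 1301 and 5000 bp, and above that the intervals overlapped. The combined list went down to a width of 1001 bp, while no replicate region was narrower than 1301 bp. Of the 158 heterochromatic regions from 1001 to 1300 bp wide, 0 were found in both. A limit of 3 counts allows a share of up to 1.90%, and the exact interval reaches 2.31%; of 1712 arm regions of that width 1 was. From 1301 to 2000 bp, 0.578% of 173 heterochromatic regions (0.0146 to 3.18%) and 7.09% of 2566 arm regions (6.13 to 8.16%) were found in both. From 2001 to 3000 bp, 37.4% of 91 heterochromatic regions (27.4 to 48.1%) and 72.5% of 2648 arm regions (70.7 to 74.2%) were found in both. From 3001 to 5000 bp the shares were 63.5% of 63 (50.4 to 75.3%) in the heterochromatin and 84.9% of 1417 (82.9 to 86.7%) on the arms. Above 5000 bp all 39 heterochromatic regions were found in both (91.0 to 100%), and so were 525 of the 538 arm regions, 97.6% (95.9 to 98.7%).

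**Figure D2:**
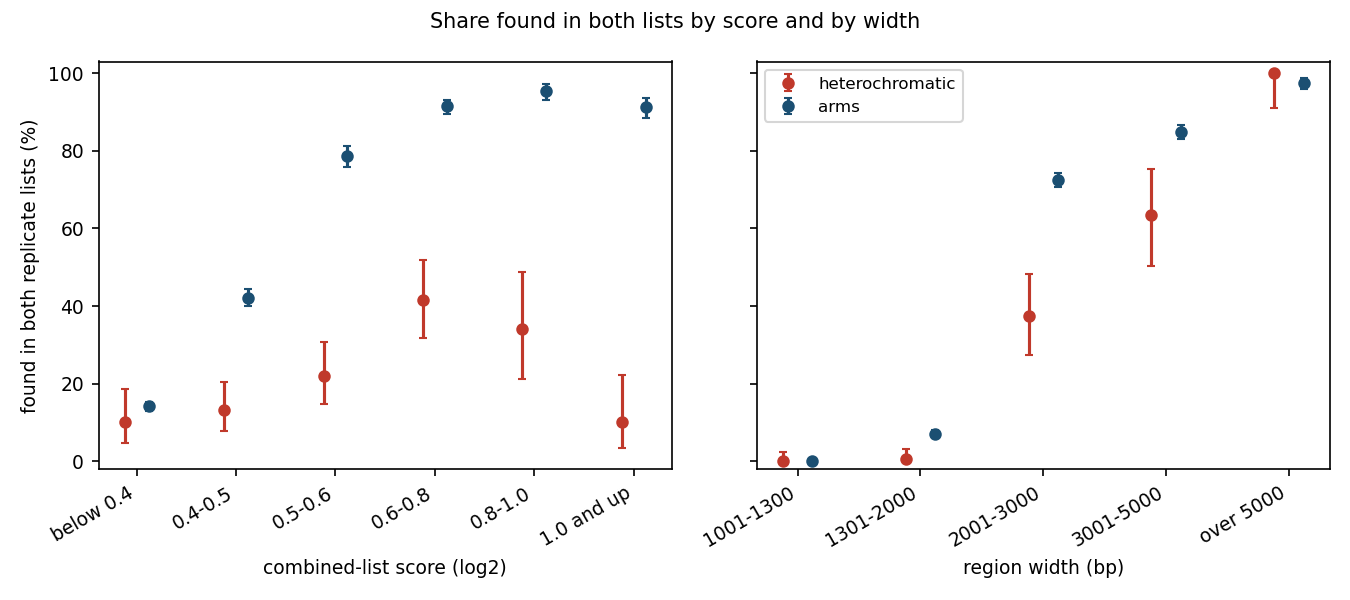
Points are the share of combined-list regions found in both replicate lists (percent, y axis) by combined score (log2, left panel) and by width (bp, right panel), for heterochromatic sequences and for the arms 2L, 2R, 3L, 3R and X; bars are 95% exact Clopper-Pearson intervals, which cover counting error only. At scores from 0.6 to 0.8 the share is 41.6% in the heterochromatin and 91.5% on the arms, while above 5000 bp it is 100% in the heterochromatin and 97.6% on the arms.

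The heterochromatic regions found in both replicates were wide and of moderate score. Their median width was 3822.5 bp (quartiles 2860 and 6263.75 bp), and that of the 3830 arm regions found in both was 2852 bp (2286 and 3957.75 bp). Of the 114, 34.2% were wider than 5 kb, and of the arm regions found in both, 13.7% were. Such width was not particular to these sequences. In the 1 Mb next to the centromeres, regions found in both had a median width of 3670 bp, and 29.1% were wider than 5 kb. On chromosome 4 the values were 3530 bp and 24.6%. The median score of the 114 was 0.63, a ratio of 1.55, and their quartiles were 0.52 and 0.74. On the arms the median was 0.56, a ratio of 1.47, with quartiles of 0.44 and 0.76. The highest scores were 2.88 in the heterochromatin and 2.87 on the arms. A ratio above 2 was reached by 5 of the 114, 4.39%, and by 450 of the 3830 on the arms, 11.7%. The 282 heterochromatic regions found in neither list were narrow, with a median width of 1267.5 bp, and 146 of them, 51.8%, were narrower than 1301 bp. The 2706 arm regions found in neither were about as narrow, with a median of 1249 bp and 55.5% narrower than 1301 bp. Median scores of regions found in neither were 0.54 in the heterochromatin and 0.36 on the arms. Regions found in a single replicate had median scores of 0.49 (replicate 1 alone) and 0.47 (replicate 2 alone) and median widths near those of each other, 1978 and 1967.5 bp.

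**Figure D3:**
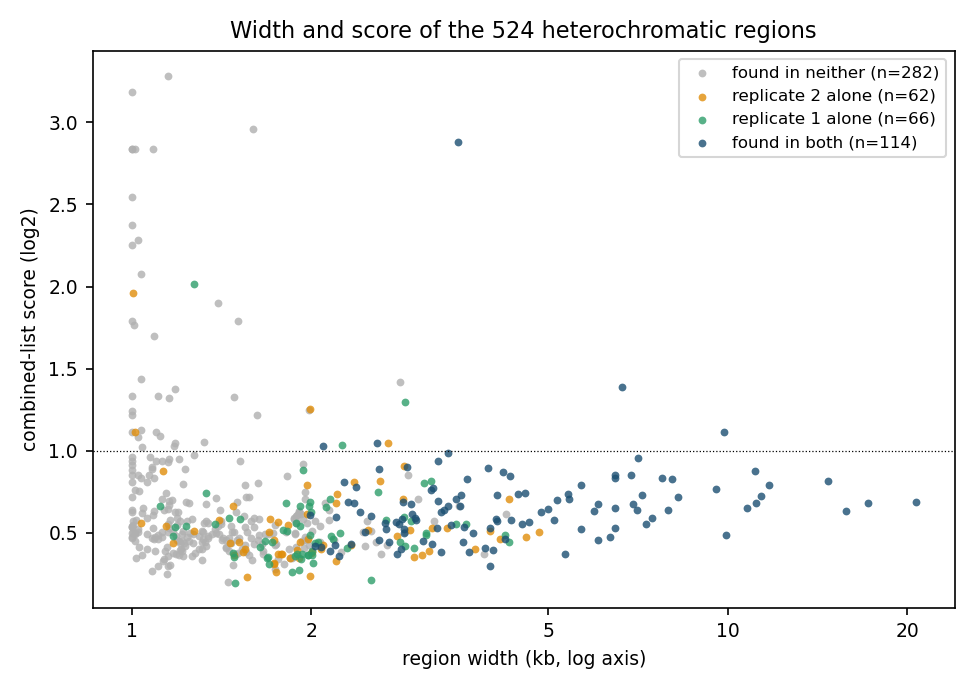
Each point is 1 of the 524 heterochromatic regions, by width (kb, log axis) and combined-list score (log2), coloured by the replicate lists it was found in; the dotted line marks a ratio of 2. High scores gather at about 1 kb among regions found in neither list, while the regions wider than 5 kb, all found in both, lie below the dotted line except for those on 2RHet at 1.38 and 3LHet at 1.11.

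Scores at the upper end belonged to short regions that no replicate list held. In all, 49 of the 524 heterochromatic regions had a ratio above 2, 9.35%, beside 6.21% of the whole combined list. Of these 49, 37 were found in neither replicate, 7 in a single replicate and 5 in both. On the arms 493 regions passed that ratio, of which 39 were found in neither list and 450 in both. The part of the arms in the 1 Mb next to the centromeres was nearer to the heterochromatin. There 28 regions passed the ratio, of which 17 were found in neither list and 8 in both. The highest score of each of the 6 sequences belonged to a region found in neither list. On 2RHet it was the region from 897116 to 898268, with a score of 3.28 and a width of 1153 bp. On 3RHet it was the region from 1714360 to 1715360 (score 3.18, 1001 bp), which lay 130 bp from another region found in neither, at 1.79. On 3LHet it was the region from 1877494 to 1879089 (score 2.96, 1596 bp). 2LHet from 320487 to 321487 and 2RHet from 1635938 to 1637025 had the same score, 2.84, with widths of 1001 and 1088 bp. The highest scores of YHet and XHet were lower, 1.43 for the YHet region given above and 1.08 for XHet from 177961 to 178986.

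Separate regions could have equal scores to the last digit, and for nearly all regions 2 raised to the score was a constant multiplied by a ratio of 2 whole numbers. With 2 as the base of the logarithm, 9709 of 9756 combined-list scores gave such a ratio, with denominators up to 3000 allowed and a relative tolerance of 1e-12. The same held for all 5514 scores of replicate 1 and for 6001 of 6004 of replicate 2. With the natural logarithm 0 scores matched in any list, beyond those equal to the reference score, and with base 10 the matches were 14 in the combined list, 1 in replicate 1 and 3 in replicate 2. The reference score, at which both whole numbers were taken as equal, was 0.38 in the combined list, a ratio of 1.30, and 113 regions had it. Among the 12 most frequent scores, it was the one that gave the smallest median denominator. The denominators below are in lowest terms, so if that choice holds each is a lower bound on the whole number used. What the whole numbers count is not stated, so they were not taken as read numbers, and depth is unknown.

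Median denominators were smaller in the heterochromatin than on the arms in each class, whether found in both lists, a single list or neither. The median denominator was 149.5 over the heterochromatic regions, 283 over regions in the 1 Mb next to the centromeres and 389 over the rest of the arms. On chromosome 4 it was 457. Per kb of region width the median denominator was 124 for heterochromatic regions found in both and 245 for arm regions found in both. For regions found in neither it was 63.9 per kb in the heterochromatin and 177 per kb on the arms. Denominators of at most 10, which leave the ratio coarse, occurred in 39 heterochromatic regions, 7.44% (95% exact interval 5.35 to 10.0%), beside 2.59% of the whole combined list and 1.94% of arm regions (1.66 to 2.25%). Such small denominators were common at high score. Among the 37 heterochromatic regions with a ratio above 2 found in neither list, the median denominator was 5, the highest was 29, and 22 had one of at most 10. Among the 5 found in both, the denominators ran between 61 and 1528. The highest score of the heterochromatin, on 2RHet, was 15 over 2, and that of 3RHet was 7 over 1. The score of 2.84 was 11 over 2 and occurred in 4 heterochromatic regions. Whether small whole numbers bear on which regions were found again was not tested.

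**Figure D4:**
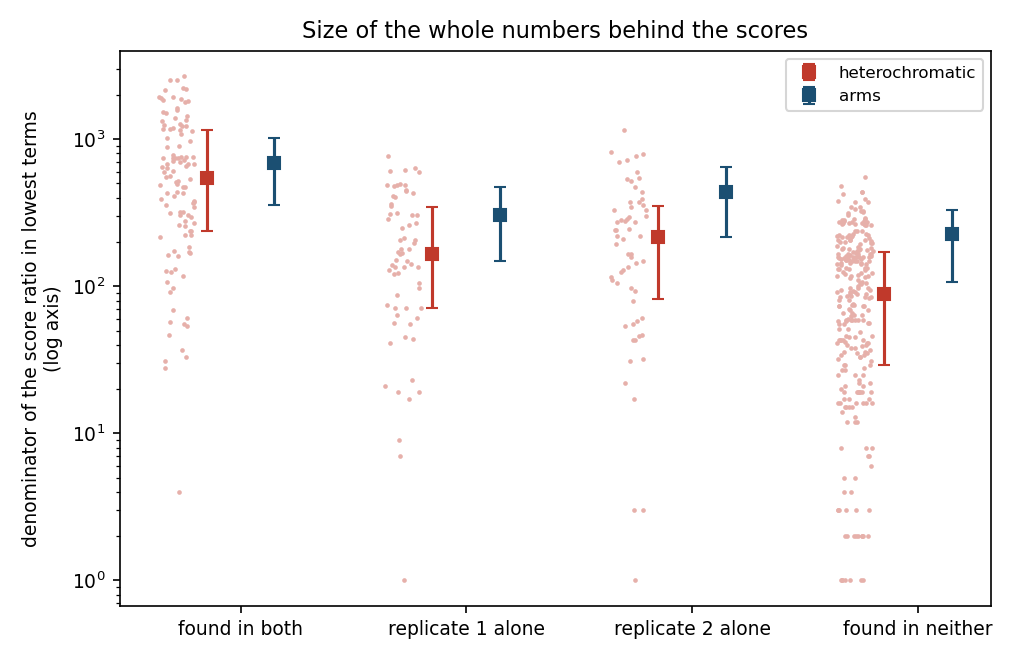
Squares are the median and bars the quartiles of the denominator of the score ratio in lowest terms (log axis), by the replicate lists a region was found in, for heterochromatic sequences and for the arms; small points are the single heterochromatic regions. In the heterochromatin the median is 542.5 for regions found in both and 89 for regions found in neither, and on the arms 685 and 225.5.

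The strongest region found in both replicates stood apart from the others. It lay on 3RHet from 2348216 to 2351745, was 3530 bp wide, and had a combined score of 2.88, which ranked 4 among the 524 and 12 in the whole list. Its denominator was 607, unlike those of the 3 higher heterochromatic regions, which were 1 or 2. It scored 3.28 in replicate 2 and 2.31 in replicate 1, a mean of 2.80 ± 0.68 (SD, n = 2), and both replicate regions covered over 90% of it. Its replicate 2 score was the highest of the heterochromatin in that list, while in replicate 1 a region on 3LHet found in that list alone was higher, at 2.60. The next region 997 bp to the left had a score of 0.58 and was found in replicate 1 alone, and no other region lay within 20 kb to the right.

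The next 4 regions found in both had ratios from 2.04 to 2.61. 2RHet from 368259 to 374891, 6633 bp wide, had a combined score of 1.38 and close replicates, 1.43 in replicate 2 and 1.39 in replicate 1. 3LHet from 2396605 to 2406466, 9862 bp wide, had a combined score of 1.11, with 1.22 in replicate 2 and 1.03 in replicate 1. Near the left end of the same sequence, 3LHet from 5539 to 8121 had a combined score of 1.04, with 1.15 in replicate 2 and 1.12 in replicate 1. These 3 differed between replicates by at most 0.19. 3RHet from 2314304 to 2316397 had a combined score of 1.03, below both its replicate scores of 1.56 in replicate 2 and 1.43 in replicate 1. A combined score below both replicate scores was usual, in 79 of the 114 heterochromatic regions, and the arms had 2028 of 3830.

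A further 5 regions completed the 10 highest found in both, with ratios from 1.86 to 1.98. 3RHet from 1933671 to 1937058 had a combined score of 0.98, with 1.04 in replicate 2 and 0.95 in replicate 1. 2RHet from 469646 to 476722 had 0.95, with 1.07 in replicate 2 and 0.91 in replicate 1, and 2RHet from 243514 to 247469 had 0.89, with 1.00 in replicate 2 and 0.91 in replicate 1. These 3 differed between libraries by at most 0.16. The others, both on 3LHet, differed more. The region from 57199 to 60462 had 1.21 in replicate 2 and 0.89 in replicate 1, and the region from 2544000 to 2546899 had 1.21 in replicate 2 and 0.64 in replicate 1. Each of the 10 highest was higher in replicate 2, beside 57.9% of the 114 regions found in both.

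Over all 114 regions, the median scores of the replicates were close, while single regions differed more. The median was 0.74 in replicate 2 and 0.70 in replicate 1, and the median difference, replicate 2 minus replicate 1, was 0.02 (quartiles -0.06 and 0.15). Replicate 2 was higher in 66 of the 114, 57.9%, beside 59.1% of all regions found in both in the whole list. The SD between replicates had a median over regions of 0.062 in the heterochromatin and 0.077 on the arms. The absolute difference was at most 0.1 in 62 of the 114 regions and above 0.3 in 15. On the arms it was at most 0.1 in 1766 of 3830 regions and above 0.3 in 491. The median absolute difference was 0.088 in the heterochromatin and 0.109 on the arms. Spearman's rho between the replicate scores was 0.63 over the 114 regions and Pearson's r was 0.77, given as a description, since regions share their libraries. Without the strongest region r was 0.61 over 113 regions, so part of its size rests on that region. On the arms rho was 0.69 and r was 0.82, both higher than in the heterochromatin.

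**Figure D5:**
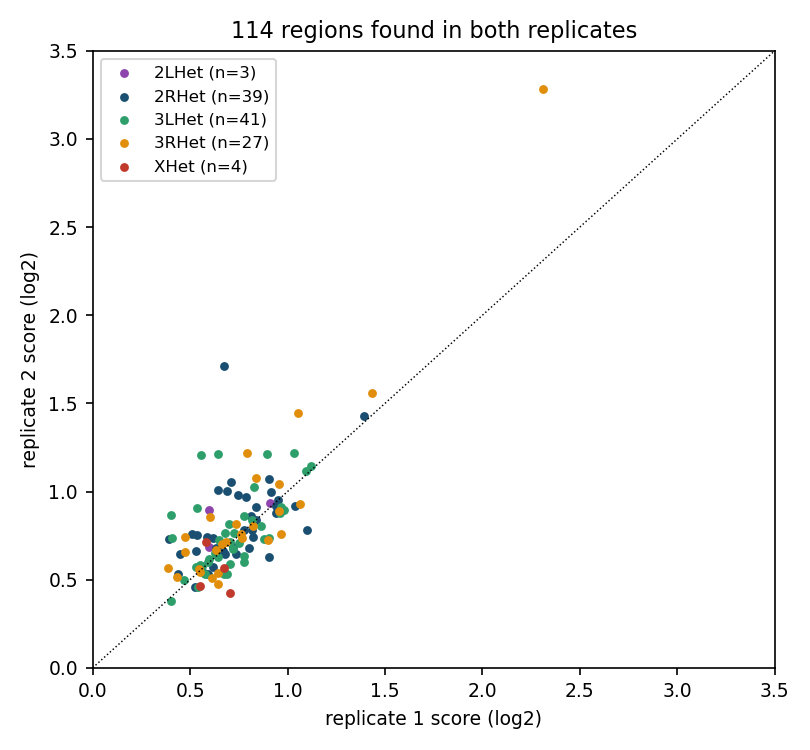
Each point is 1 of the 114 heterochromatic regions found in both replicates, by its highest overlapping score in replicate 1 (x axis, log2) and replicate 2 (y axis, log2), coloured by sequence; the dotted line marks equal scores. Most points lie near the line below 1.5, the 3RHet region at 2.31 and 3.28 stands alone, and a 2RHet region at 0.67 and 1.71 lies farthest from the line.

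The 5 regions that differed most between replicates were all higher in replicate 2. 2RHet from 477343 to 481858 scored 1.71 in replicate 2 and 0.67 in replicate 1, a difference of 1.03, while its combined score was 0.55. The replicate 2 region covered 30.2% of it and the replicate 1 region 97.7%, so the scores describe different lengths. The strongest region, on 3RHet, followed with a difference of 0.97. The remaining 3 were on 3LHet: from 1394920 to 1399111 with 1.21 in replicate 2 and 0.55 in replicate 1, from 2544000 to 2546899 as given above, and from 2189625 to 2191927 with 0.87 in replicate 2 and 0.40 in replicate 1.

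The widest regions found in both had moderate scores and were often cut into pieces in the replicate lists. 3LHet from 590951 to 611596, 20646 bp wide, had a combined score of 0.69, and was 1 piece in replicate 2 at 0.81 and 3 pieces in replicate 1, the highest at 0.70. 2RHet from 3178287 to 3195456, 17170 bp wide, had 0.68, with 4 pieces in replicate 2, the highest at 0.86, and 3 pieces in replicate 1, the highest at 0.81. 3LHet from 1559958 to 1575718, 15761 bp wide, had 0.63, with 1 piece in replicate 2 at 0.71 and 5 pieces in replicate 1, the highest at 0.75. All 3 covered most of their length in each library, at least 72.7%. 2RHet from 1297459 to 1312197 (14739 bp, score 0.82) had a highest piece of 0.92 in replicate 2 and 0.94 in replicate 1. 2LHet from 163986 to 175721 (11736 bp, score 0.79) had 0.94 in replicate 2 and 0.91 in replicate 1. The 2RHet region was followed after 3634 bp by another region of 11119 bp found in both, at 0.88. The 39 regions wider than 5 kb together spanned 330 kb of the 572 kb in heterochromatic regions found in both.

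The density of regions varied between the sequences. The combined list had 56.5 regions per Mb of heterochromatic sequence (95% exact Poisson interval 51.7 to 61.5), 74.6 on the arms (73.1 to 76.2), and 92.6 in the 1 Mb next to the centromeres (84.4 to 101). Chromosome 4 had 141 per Mb (121 to 162), of which 45.1 per Mb were found in both, and 34.8% of it lay inside regions. 3LHet had 72.4 per Mb (62.3 to 83.6) and 2RHet 61.4 (53.2 to 70.5). 3RHet had 39.7 (32.3 to 48.3), below the intervals of both, and YHet had 2.88 (0.0730 to 16.1). Small XHet had 88.2 per Mb (52.3 to 139), above the intervals of 3RHet and YHet, and 2LHet had 48.8 (28.9 to 77.1), above that of YHet. Regions found in both amounted to 12.3 per Mb in the heterochromatin (10.1 to 14.8), 32.2 on the arms (31.2 to 33.2) and 34.4 next to the centromeres (29.5 to 39.9). When regions scoring under 0.42, the whole list's median, were left out, the order turned round, with 45.0 regions of any class per Mb in the heterochromatin (40.8 to 49.6) and 35.6 on the arms (34.6 to 36.7). Covered length over all regions again put the heterochromatin below the arms, with 13.5% of the heterochromatic sequence, 18.3% of the arms and 25.6% of the 1 Mb next to the centromeres inside combined-list regions. Densities use the assembled length, including any part that reads could not be placed on, and how reads that match several places were treated is not known from these sources.

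Most regions had a near neighbour, in the heterochromatin and in the whole list. Of the 524, 85.9% had another region within 10 kb (95% exact interval 82.6 to 88.7%), beside 89.4% of the whole combined list. Joining regions no more than 10 kb apart gave 167 groups, of which 74 held 1 region and 33 held at least 5. Those 33 groups held 295 of the 524 regions, 56.3%, and on the arms groups of at least 5 held 59.9% of the regions. The largest group lay on 2RHet from 385387 to 513139. It held 23 regions, 7 of them found in both, with 54.8% of its length inside regions and a median score of 0.48, and it began 10495 bp after the region at 1.38. A second group on 2RHet, from 145191 to 251459, held 21 regions, of which 3 were found in both. On 3LHet the group from 1316340 to 1423663 held 20 regions, 8 of them found in both. The 2 groups of 3RHet with the most regions, from 1760821 to 1840064 and from 1915257 to 1977063, each had 6 regions found in both, of 13 and 11.

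Long stretches had no region in the combined list. On 3RHet none lay between 638922 and 1054480, a gap of 416 kb, and 8 of the 25 full 100-kb windows of that sequence were empty. The longest gaps were 175 kb on 2RHet, from 2399820 to 2574784, and 103 kb on 3LHet, from 2281275 to 2384383. Of the 32 full windows of 2RHet 1 was empty, and of the 25 of 3LHet 0 were. On the arms the longest gap was 308 kb, over 119 Mb of sequence. Whether reads could be placed in these empty stretches is not known from these sources. On XHet, whose first 49.4 kb held no region, the 15 regions from 49357 to 126702 followed each other with starts 2.69 to 7.17 kb apart, a median of 5.19 kb, and widths from 1910 to 3431 bp. The largest groups of 2RHet, 3LHet and 3RHet had median distances of 5.49, 5.55 and 5.35 kb. Of the 15 on XHet, 4 were found in both, 6 in replicate 1 alone, 3 in replicate 2 alone and 2 in neither, and 5 in a row were found in replicate 1 alone. Their combined scores ran from 0.35 to 1.03.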

How the data were processed

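dSFMBT was measured in 2 ChIP libraries and 2 inputs, grouped by their titles. Per the submitters' processing notes the aligner was Bowtie 0.12.7, and per the file headers positions follow FlyBase release 5. The authors deposited 3 lists of enriched regions with 1 score per region, read here as log2 values from their whole-number ratios. The caller, its threshold and any use of the inputs were not given in the sources used here. Overlaps and summaries were computed in Python 3.11.15 (pandas 2.3.3, numpy 2.4.6; intervals from scipy 1.17.1; figures from matplotlib 3.10.9). A replicate score is the highest among the replicate regions overlapped. Overlap counts were checked against bedtools 2.31.1, and the whole-number ratios were tested on simulated data. The regions and lists were chosen with earlier results of these data known. Named regions were the 10 highest and 5 widest found in both, the 5 highest found in neither, the highest of each sequence and the 5 with the largest replicate difference. The score and width classes, the denominators, the groups and the windows were chosen after seeing the data. No gene was assigned, because the gene table at hand is of release 6.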

Additional observations from a re-analysis of the deposited data

How the results depend on the processing

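Of the alternatives, 20 of 35 gave values that moved and 15 gave values within the counting interval, the replicate SD or 1.5 times the count. That count does not measure robustness. Covered length is in another unit, and some settings fix the direction of the change. A 50 kb distance or 1 required replicate can only raise a share, and 50% coverage can only lower it. The alternatives that leave out regions with denominators of at most 10 or narrower than 1301 bp were chosen after seeing the data. The share found in both, 21.8%, was 16.4% when each list had to cover 50% of the region, 14.9% with the lower-scoring part of each replicate list left out, at its median, 31.1% without narrow regions, and 33.6 to 34.4% (176 to 180 regions) with 1 replicate required. On the arms it was 39.4% at 50% coverage and 53.4% without narrow regions. The share of replicate 1 regions found in replicate 2 was 57.3% for regions at or above the median score in both lists. The density of 56.5 regions per Mb, below the 74.6 of the arms, was 45.0 at or above the median score of the whole list, where the arms had 35.6, so the order of the densities turned round. It stayed below the arms with regions within 500 bp merged (50.2, arms 65.8), without narrow regions (39.4, arms 60.2) and in the replicate lists (21.4 to 22.1, arms 43.4 to 47.3), and 135 kb per Mb were covered. The median score, 0.54, was 0.58 weighted by width and 0.67 to 0.72 in the replicate lists. The share with a neighbour, 85.9%, was 99.2% at 50 kb and 67.8 to 70.9% in the replicate lists. The causes were not tested. The replicate difference and the overlap of the replicate lists need both replicates, so neither could be left out there. No paired analysis was possible because regions were listed for ChIP libraries only, and groups were not tested against each other. Read depth, which is unknown, limits the reading of any region missing in a list.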

Other observations

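Some replicate regions had no counterpart in the combined list: 1 of the 205 heterochromatic regions of replicate 1 and 5 of the 199 of replicate 2. In the whole lists these were 113 of 5514 regions of replicate 1 and 48 of 6004 of replicate 2. The sequence ends differed. The first region of 3LHet began 3.36 kb from the left end and the last ended 4.79 kb from the right end, while on XHet these distances were 49.4 and 25.1 kb. On 2LHet the 18 regions included 2 wider than 11 kb, both found in both replicates, and the last region, found in neither, was the highest of the sequence at 2.84.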
